A study of Mus musculus with 10 samples.

Results

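Acetylation of histone H4 (H4Ac) was compared between mouse embryonic fibroblasts carrying MyoD and the same kind of fibroblasts carrying green fluorescent protein (GFP), the control. The members were every H4Ac peak of these 2 populations, 31120 with GFP and 36864 with MyoD, together 67984 of the 241128 peaks in all 7 lists of the series. A region was called retained when peaks of both lists overlapped there by at least 1 bp. A peak of the cells with MyoD that overlapped no GFP peak was called gained, and a GFP peak without a counterpart was called lost. The study mapped MyoD, Myf5 and H4Ac by chromatin immunoprecipitation and sequencing in 10 samples, of which 3 were input DNA and entered no comparison.

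All cells were fibroblasts of the genotype MyoD-/-; Myf5-/-, so the control cells, too, lacked both genes. The cells received GFP, MyoD or Myf5 by lentivirus, spent 24 h from infection in growth medium and then 20 h in differentiation medium before harvest. Factor levels therefore came from a virus and not from the native locus. H4Ac was measured on native chromatin cut with micrococcal nuclease (15 U for 18 min), whereas MyoD binding was measured on chromatin fixed for 11 min in the cells with MyoD. The Myf5 population served as a side reading. No expression was measured, so the fibroblast identity was taken from the labels and was not checked against marker genes. Each group had 1 list, the MyoD binding list covered 2 replicates together by its title, and no p-value across replicates was possible. Sequencing depth per list is unknown.

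MyoD is a basic helix-loop-helix transcription factor that can turn fibroblasts towards skeletal muscle. It binds the short DNA element known as the E-box and recruits histone acetyltransferases. Acetylation of the tails of histone H4 neutralises lysine charge, loosens the packing of nucleosomes and is commonly found at active promoters and enhancers. In bulk chromatin a higher coverage can come from more cells carrying the mark or from more mark per cell, and these cannot be told apart.

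Retained chromatin was the larger share of both lists. It comprised 22948 regions built from 23693 GFP peaks and 25552 peaks of the cells with MyoD. Most of them, 20090, joined 1 peak of each list. In 2146 regions 1 GFP peak faced several peaks with MyoD, and in 500 the reverse held, so acetylated stretches were more often broken up in the list with MyoD. Peaks were also narrower there: the summed peak width per region had a median of 399 bp with GFP and 348 bp with MyoD, and was smaller with MyoD in 68.4% of regions. The overlaps were rarely marginal. The median overlapping pair shared 285 bp, and 71 of 26297 pairs shared 10 bp or less.

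Strength was taken as the authors' maximum coverage of a peak divided by the coverage cutoff they applied to its class of GC content. Because depth is unknown and cutoffs differed between lists (21 to 30 reads with GFP, 19 to 26 with MyoD, from the most AT-rich to the most GC-rich class), only order was compared. Each retained region received a percentile rank from 0 (weakest) to 100 (strongest) in each list, over the same 22948 regions. The shift is the rank with MyoD minus the rank with GFP, in percentile points.

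The order of H4Ac strength was largely shared between the populations. Across the 22948 regions the ranks had a Spearman correlation of 0.749, a description across regions of 1 library each and no replicate measure. The median absolute shift was 11.2 points and the standard deviation of the shift 20.4 points. A rise of at least 20 points was seen in 3345 regions (14.6%) and a fall of at least 20 points in 3368 (14.7%). Ranking the same regions in both lists makes rises and falls cancel in sum. Shares of similar size are therefore no result, though they need not be equal.

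Much of that movement lies within the counting error of the coverage. The median coverage was 41 with GFP and 36 with MyoD, and a coverage of 24 has an exact 95% Poisson interval of 15.4 to 35.7. For each region the ranks at both ends of its 2 Poisson intervals were therefore found. The rank ranges did not overlap in 501 regions that were higher with MyoD (2.18%) and in 385 that were lower (1.68%). These are called risers and fallers past counting error here. The intervals treat reads as independent and hold no variation between cultures. Rank ranges are narrow near the top of the list, where small shifts can pass: 171 of the 501 and 171 of the 385 moved by under 20 points.

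Risers past counting error lay mostly at MyoD binding sites and fallers mostly did not. Of the 501 risers, 333 (66.5%, exact 95% binomial interval 62.1 to 70.6) overlapped a MyoD peak. Of the 385 fallers, 128 (33.2%, 28.6 to 38.2) did, close to the 31.4% of all retained regions (7209 of 22948) that held one. Put the other way, 333 of 7209 regions with a MyoD peak were risers (4.62%, 4.15 to 5.13) against 168 of 15739 without one (1.07%, 0.913 to 1.24). Fallers made up 1.78% of regions with a MyoD peak and 1.63% of those without. Past counting error, the 2 classes thus differed in rises, while the pooled shares of fallers were close. These shares do not allow for the rank in the control cells. In the strongest of 10 classes of control rank, 7.98% of regions with a MyoD peak and 10.3% of those without were fallers. The shares were 3.44% and 4.86% in the ninth class, 2.59% and 2.67% in the eighth, and 0.685% and 0.318% in the seventh.

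The typical region moved little. With a MyoD peak the median shift was 0.86 points (0.50 to 1.29), with quartiles of -9.09 and 13.5. Without one it was -0.83 points (-1.08 to -0.57), with quartiles of -12.6 and 9.25. These intervals come from order statistics and treat regions as independent, which neighbouring regions are not. Rises of at least 20 points were found in 17.9% of regions with a MyoD peak and 13% of those without, and falls in 12.0% and 15.9%. Regions with a MyoD peak already ranked higher in the control cells, with a median rank of 55.3 against 47.2, and stood at 59.7 and 45.5 in the cells with MyoD.

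**Figure D1:**
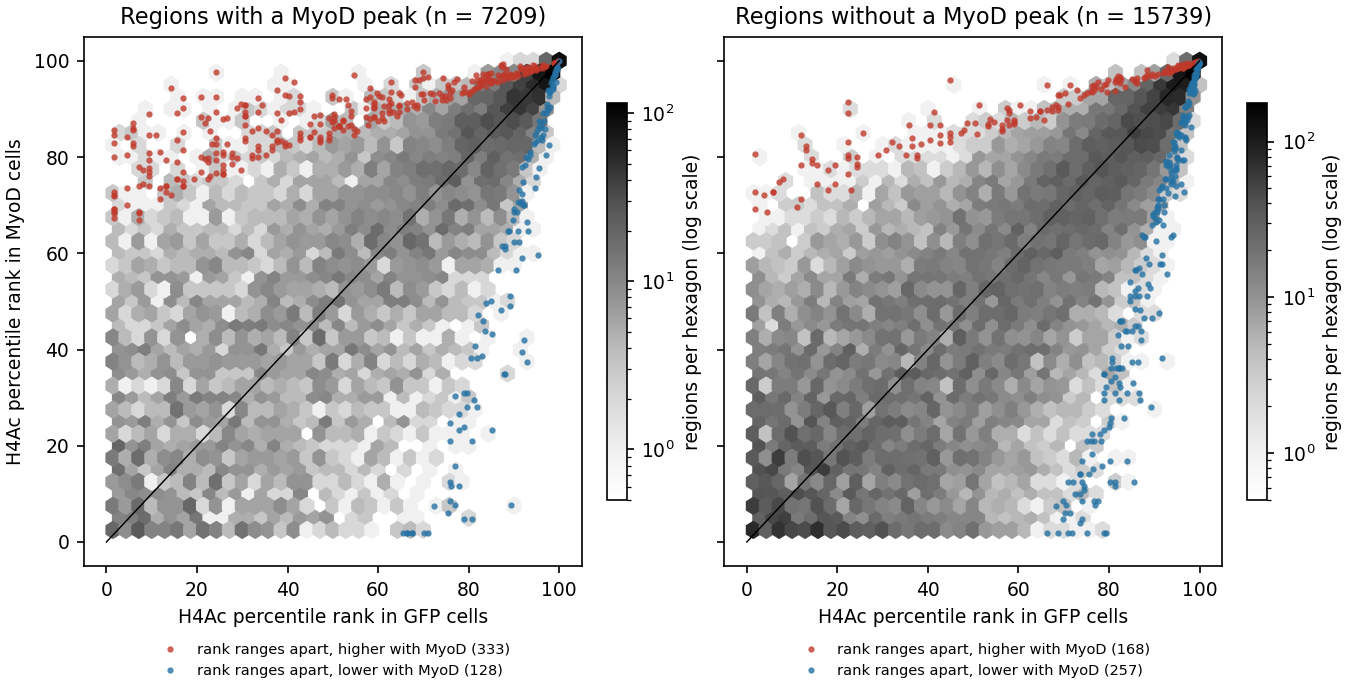
H4Ac percentile rank of each retained region in cells with GFP (horizontal axis) and in cells with MyoD (vertical axis), for regions with (left) and without (right) a MyoD peak. Grey hexagons count regions on a log scale, the line marks equal rank, and coloured points are regions whose rank ranges did not overlap: 333 higher and 128 lower with MyoD on the left, 168 and 257 on the right.

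Coverage relative to the cutoff shows how far the risers moved. Risers with a MyoD peak had a median of 1.65 times the cutoff with GFP and 3.53 times with MyoD. Risers without one went from 2.00 to 3.70 times. Fallers went from 3.76 to 2.11 times with a MyoD peak and from 3.69 to 2.14 times without. Since these regions were chosen by the size of their change, the values describe them and compare nothing.

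Among regions with a MyoD peak, the share of risers grew with the strength of MyoD binding only at its upper end. The MyoD list was split by coverage into 10 strength classes of near-equal size, from 1 (weakest) to 10 (strongest), and each region took the class of its strongest MyoD peak. From class 1 to class 6, the median shift lay between -2.25 and 0.18 points and 1.78% to 2.56% of regions were risers past counting error. Regions without a MyoD peak held 1.07% (0.913 to 1.24). Their median control rank was also lower, at 47.2 against 55.3 to 61.1 in these classes. The share was 3.17% in class 7, 4.76% in class 8 and 5.36% (4.04 to 6.96) in class 9. In class 10, with a MyoD coverage of 148 or more, it was 148 of 1351 regions (11.0%, 9.34 to 12.7), and 9 were fallers. The median shift there was 6.33 points, and 384 regions (28.4%) rose by at least 20 points against 99 (7.33%) that fell by as much. Their median rank went from 52.2 in the control cells to 64.6. At MyoD peaks of the weakest class, falls of at least 20 points were more frequent than rises, at 17.3% against 12.3%. These shares were close to those of regions with no MyoD peak, at 15.9% and 13.0%. Past counting error, the weakest class held 11 risers and 10 fallers.

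Regions with several MyoD peaks were few and gave a mixed reading. Of 201 regions with 2 MyoD peaks, 18 were risers past counting error (8.96%, 5.39 to 13.8) and 5 were fallers (2.49%), against 315 (4.50%) and 123 (1.76%) of 7005 regions with 1. The median shift was no higher, at 0.78 points with 2 peaks and 0.86 with 1, and the 3 regions with 3 peaks held no riser.

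**Figure D2:**
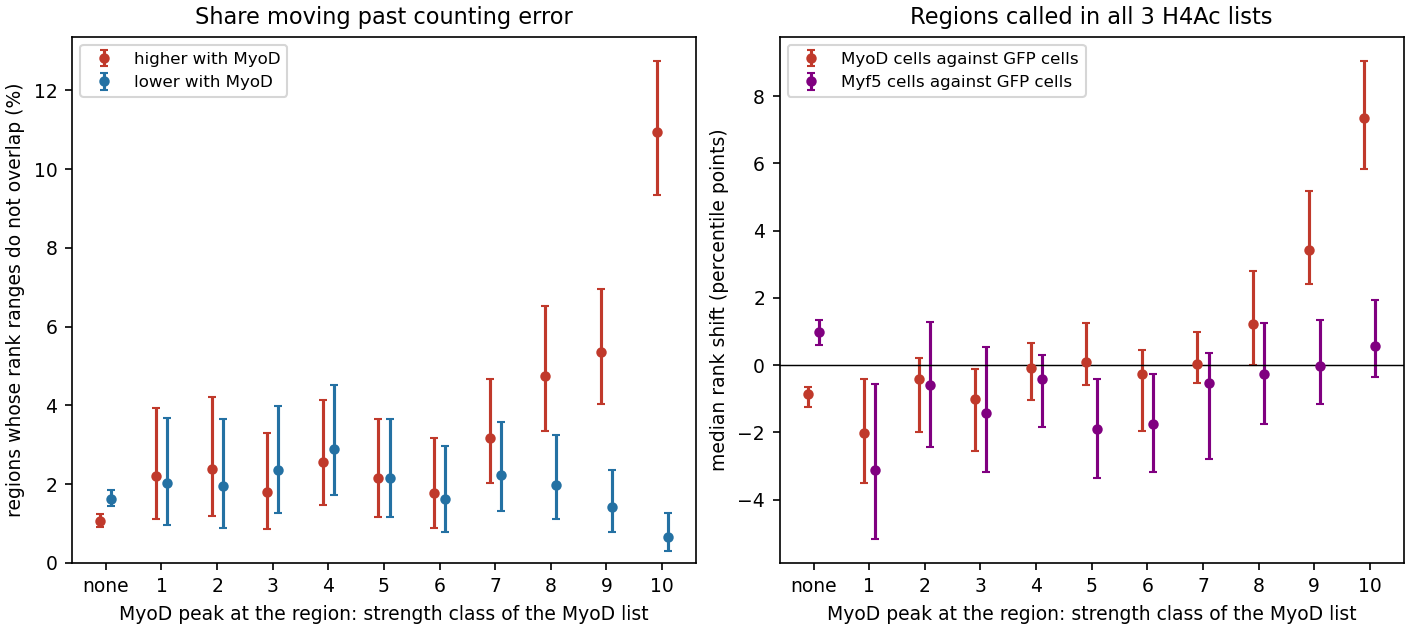
Left: percent of retained regions whose rank ranges did not overlap, higher (red) or lower (blue) with MyoD, by strength class of the MyoD list (none = no MyoD peak, 10 = strongest) with exact 95% binomial intervals; the red share reaches 11.0% in class 10. Right: median rank shift with its 95% interval at regions called in all 3 H4Ac lists, for cells with MyoD (red) and with Myf5 (purple), both against GFP; in class 10 the values are 7.34 and 0.57 points.

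The same regions could be read in the cells with Myf5, where 19349 regions were called in all 3 H4Ac lists. Both readings share the GFP list as control, so they are given side by side. Over these regions, rises of at least 20 points made up 13.8% with MyoD and 19.3% with Myf5. At MyoD peaks of class 10 (1126 regions), the median shift was 7.34 points (5.84 to 9.05) in cells with MyoD and 0.57 points (-0.36 to 1.95) in cells with Myf5. In that class 333 regions (29.6%) rose by at least 20 points with MyoD and 228 (20.2%) with Myf5. At regions without a MyoD peak the medians were -0.86 (-1.24 to -0.65) and 0.98 (0.59 to 1.33). Along the 10 classes of MyoD strength the median went from -2.03 to 7.34 points in the cells with MyoD, and lay between -3.11 and 0.57 points in the cells with Myf5. With Myf5, the share of large rises in class 10 was near that of all regions.

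Among regions without a MyoD peak, those with a Myf5 peak held somewhat more movers past counting error in both directions. Shifts of at least 20 points were not more frequent there, at 12.8% rising and 15.2% falling against 13.1% and 16.2% with neither factor. The regions with a Myf5 peak only also ranked higher in the control cells, with a median rank of 55.3 against 44.35. Regions that held a Myf5 peak and no MyoD peak (4781) had a median shift of -0.86 points, with 64 risers (1.34%) and 108 fallers (2.26%) past counting error. Regions with neither factor (10958) had a median of -0.81 points, with 104 risers (0.949%) and 149 fallers (1.36%). Where both factors had a peak (7084 regions) the median was 0.86 points, with 331 risers (4.67%) and 123 fallers. A MyoD peak without a Myf5 peak was rare, with 125 regions, 2 risers and 5 fallers.

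Regions with a MyoD peak stood above those without one at every starting strength. Any rank shift depends on the starting rank, since the weakest regions can only rise and the strongest only fall, and a control coverage that is low or high by counting error tends to be less so in the other list. The retained regions were therefore split into 10 classes by rank in the control cells. The median shift was higher with a MyoD peak in 10 of 10 classes. In the weakest class it was 19.2 points with and 12.8 points without, a gap of 6.36. The gap was widest in the next class, at 9.99 points (15.4 against 5.45), and 8.54 points in the sixth (0.64 against -7.90). It narrowed to 3.72 in the seventh, 2.07 in the ninth and 0.27 in the strongest class (-0.59 against -0.86). With regions classed instead by the mean of both ranks, in 5 classes, the gaps were 0.31, 8.23, 6.35, 4.19 and 0.33 points from the weakest to the strongest. By that measure the gap was wide in the middle and next to nothing at both ends of the list, so the 6.36 points of the weakest control class depend on how regions are classed.

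**Figure D3:**
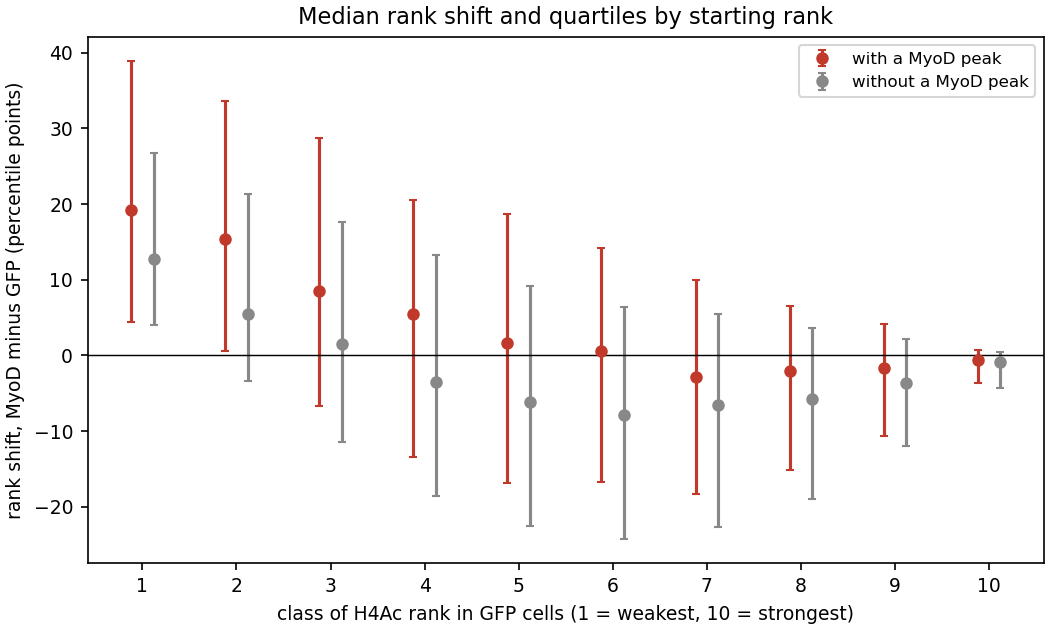
Median rank shift (points, in percentile points) and quartiles (bars) by class of H4Ac rank in the control cells, for regions with (red) and without (grey) a MyoD peak. The red median lies above the grey one in 10 of 10 classes, by 9.99 points in class 2 and by 0.27 in class 10.

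Shifts also differed by GC content. Over all retained regions the median shift was near 0 up to a GC content of 50% (0.05, 0.15 and 0.04 points in the classes up to 40%, 40 to 45% and 45 to 50%) and lower above it, at -1.16 points for 50 to 55% and -2.61 points above 55%. In the richest class 11.4% of 508 regions rose and 18.9% fell by at least 20 points. GC-rich retained regions thus ranked somewhat lower with MyoD. Both lists used separate cutoffs per GC class, and 98% of regions had the same GC class in both lists. The cutoffs were 21 reads with GFP and 19 with MyoD in the AT-richest class, and 30 and 26 in the GC-richest. The part of the cutoffs in this pattern was not tested.

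A MyoD peak went with a higher shift in each of the 5 GC classes, most in the AT-richest one. Regions with a MyoD peak also started lower there, with a median control rank of 44.0 against 54.1 to 61.5 in the other classes. In the class of at most 40% GC the medians were 4.55 points with a MyoD peak (468 regions) and -1.63 without (1969). Risers past counting error made up 23 regions (4.91%) and 10 regions (0.508%) there. The difference in medians was smaller at 40 to 45% (1.99 against -0.44), at 45 to 50% (0.65 against -0.48) and at 50 to 55% (-0.32 against -2.17). Above 55% the medians were -0.96 (-4.24 to 0.90, 201 regions) and -4.13 (-7.13 to -1.05, 307 regions). Both were below 0 and farther apart than in the classes from 40 to 55%, but their intervals overlap. At MyoD peaks of class 10 the median shift fell with GC content, from 13.3 points at 40% GC or less (87 regions) over 9.55, 5.47 and 2.90 to 2.45 points above 55% (36 regions).

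Width separated the regions by how far they could be told apart from counting error. Among regions up to 250 bp wide (3443), 35 were risers past counting error, and among those above 1000 bp (1554), 79 were. Large shifts went the other way: 17.8% of the narrow regions rose by at least 20 points, against 5.98% of the widest. Wide regions also started higher, with a median control rank of 83.9 against 25.7 for the narrow ones. In every width class the share of risers past counting error was higher with a MyoD peak, from 2.03% against 0.691% up to 250 bp, over 3.31% against 0.727% for 251 to 500 bp, to 8.55% against 1.96% above 1000 bp. Among the widest regions the 63 risers with a MyoD peak stood beside 14 fallers, whereas without a MyoD peak there were 16 risers and 22 fallers.

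The extent of the peaks changed with MyoD strength as well. Without a MyoD peak, the summed peak width with MyoD was a median of 0.901 times that with GFP, and 28.2% of regions were wider with MyoD. At MyoD peaks of class 1 the ratio was 0.899 and 30.6% were wider. In class 10 the ratio was 0.993 and 47.2% were wider. The general narrowing seen in the list with MyoD was therefore nearly absent at the strongest MyoD sites.

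The largest rises past counting error at MyoD peaks started at or near the calling cutoff in the control cells. Such a start follows from the choice by size of shift, since only regions of low control rank can rise so far. The region at chr6:17465713-17466155 (mm9, as all positions here) had a coverage of 24 (15.4 to 35.7) with GFP, 65 (50.2 to 82.8) with MyoD and 45 with Myf5. Its rank went from 1.73 to 85.7, and its MyoD peak, with a coverage of 973, belonged to class 10. At chr19:47018572-47019020 the coverage was 24 with GFP, 63 with MyoD and 37 with Myf5, and the rank rose by 82.9 points at a MyoD peak of coverage 132. In both, the cells with Myf5 lay between the other populations.

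The next 3 also started at or near the cutoff with GFP. The region at chr11:105766415-105766943 had a coverage of 25 with GFP, 68 with MyoD and 32 with Myf5, a rise of 81.2 points. At chr8:93418242-93418459 the values were 24, 60 and 44, a rise of 81.1 points. At chr1:40911459-40912264 they were 25, 66 and 66, which is 3.14 times the cutoff with MyoD and 2.75 times with Myf5. Their MyoD peaks had coverages of 85, 53 and 78, below class 10, so that 4 of these 5 regions were not at the strongest sites. All 5 also held a Myf5 peak, as did 7084 of the 7209 retained regions with a MyoD peak.

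Large rises without a MyoD peak were of similar size. At chr6:99473081-99473483 the coverage was 28 with GFP, 65 with MyoD and 38 with Myf5, a rise of 79.0 points at a Myf5 peak of coverage 179. At chr10:67737652-67738392 it was 29, 63 and 48 (72.8 points, Myf5 peak of coverage 80). At chr1:20668652-20669098 it was 32, 81 and 60 (69.0 points, Myf5 peak of coverage 42). These 3 regions were close to MyoD binding all the same: the nearest MyoD peak lay 203 bp, 882 bp and 142 bp away, with coverages of 80, 122 and 667. The other rises without a MyoD peak were 13340 and 23384 bp from one. Those 2 had neither factor: 24, 48 and 53 at chr6:8685913-8686168 (71.1 points) and 27, 59 and 63 at chr14:8582222-8582812 (69.0 points). Coverage was thus slightly lower with MyoD than with Myf5 in both. Relative to the cutoff it stood at 2.29 against 2.21 times in the former and 2.81 against 2.63 times in the latter. The Poisson intervals with MyoD, 35.4 to 63.6 and 44.9 to 76.1, hold the Myf5 coverage of each region. No order of MyoD and Myf5 is therefore read from these values.

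The deepest falls ended at or near the cutoff in the cells with MyoD, which likewise follows from their choice by size of shift. Several were not called with Myf5 either. At chr19:46835411-46835740 the coverage was 95 (76.9 to 116.1) with GFP, 26 (17.0 to 38.1) with MyoD and 39 with Myf5. Its rank fell from 89.3 to 7.69 although it held a MyoD peak of coverage 98. At chr4:45355020-45355424 the coverage was 68 with GFP and 23 with MyoD, and at chr10:122513191-122513419 it was 65 and 23. Neither had an H4Ac peak with Myf5, although the latter held a MyoD peak of coverage 196, in class 10. The remaining falls at MyoD peaks were at chr3:79792637-79793431 (56 and 22, not called with Myf5) and at chr8:74061531-74062251 (67 and 26, and 55 with Myf5).

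Without a MyoD peak the deepest falls had the same depth. The coverage went from 71 to 24 at chr3:27609653-27610192 and from 65 to 22 at chr16:32277593-32277984, shifts of -77.6 and -77.1 points, with no H4Ac peak in the cells with Myf5. It went from 60 to 22 at chr11:61080396-61080626 (30 with Myf5) and from 77 to 25 at chr14:76153782-76154380 (28 with Myf5). In these 4 regions, H4Ac was low or not called with both factors. At chr1:175732479-175732710 the reading differed: 46 with GFP and 19 with MyoD, but 74 with Myf5. Of all fallers, 341 of 385 (88.6%) had an H4Ac peak with Myf5, and of all risers 494 of 501 (98.6%), against 84.3% of the retained regions.

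**Figure D4:**
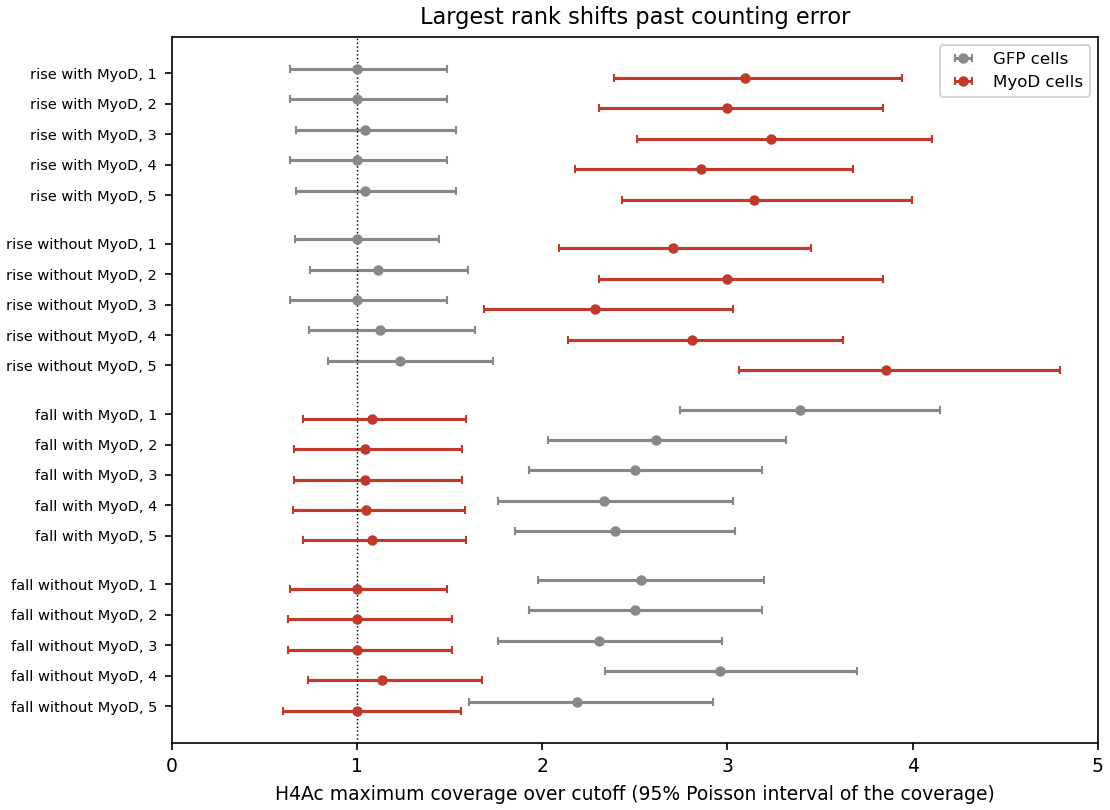
H4Ac maximum coverage over cutoff, with exact 95% Poisson intervals of the coverage, in cells with GFP (grey) and MyoD (red), at the 5 largest rises and the 5 largest falls past counting error with and without a MyoD peak. Regions are numbered within each set by the size of the shift (for rises with a MyoD peak, 1 is the chromosome 6 region with coverages of 24 and 65). The dotted line marks the cutoff, where the lower value of each region lies or nearly lies.

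The regions named as strongest in both lists were chosen for their rank in each, so that they kept it is no result. At chr1:10028010-10028290 the coverage was 580 with GFP, 516 with MyoD and 448 with Myf5, and at chr2:52600811-52601737 it was 592, 464 and 371. Both ranked above 99.98 in each list. The other 3 regions of this set carried a raised control: at chr8:19784556-19785423 and chr8:20019585-20020479 the control coverages of the 2 lists were 17 and 19 and 16 and 12, against a median of 4, and at chr11:3052157-3065156 they were 183 and 153. These 3 also overlapped a peak of the mock precipitations, made with the factor antibodies from cells with GFP. The part of background signal in their H4Ac coverage was not tested. A control coverage of 10 or more was found in 13 of 501 risers (2.59%) and 8 of 385 fallers (2.08%), against 459 of all retained regions (2.00%), and 0 risers and 2 fallers overlapped a mock peak.

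Gained peaks were mostly weak and narrow, and the few strong ones were mostly at MyoD. There were 11312 of them (30.7% of the list with MyoD), with a median width of 177 bp against 320 bp for the retained peaks of that list, and 3814 (33.7%) stood at the cutoff or 1 read above it. The 7427 lost peaks (23.9% of the GFP list) were similar in strength, with a median width of 255 bp against 389 bp, and 2568 (34.6%) stood at the cutoff or 1 read above. A share of both classes thus lies where a single read decides the call. Over whole classes, 36.7% (35.9 to 37.6) of gains and 16.2% (15.4 to 17.1) of losses held a MyoD peak, against 29.7% of the retained peaks in the list with MyoD and 30.9% in the GFP list. High up, the classes lay farther apart. Of the gained peaks 42 reached at least 3 times the cutoff, up to 7.05 times, and all 42 overlapped a MyoD peak. Of the lost peaks 2 did, up to 3.76 times, and neither had a MyoD peak. At 2 times the cutoff 258 of 296 gained peaks (87.2%) and 6 of 37 lost ones (16.2%, 6.19 to 32.0) overlapped a MyoD peak. Retained peaks of that strength did so in 38.9% of 8526 cases with MyoD and 36.2% of 7966 with GFP, and at 3 times the cutoff in 42.6% and 39.1%.

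The strength of the MyoD peak also separated them. MyoD peaks of class 10 were met by 1429 gained peaks (12.6%, 12.0 to 13.3), against 5.62% of the retained peaks of that list. They were met by 133 lost peaks (1.79%, 1.5 to 2.12), against 5.88% of the retained GFP peaks. Where a MyoD peak was present its median coverage was 99 at gained, 63 at retained and 50 at lost peaks. Split into 5 classes of H4Ac strength, the share of gained peaks at MyoD rose from 25.7% over 29.6%, 33.1% and 38.7% to 56.8%, whereas that of lost peaks lay between 13.9% and 18.2%.

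Gained and lost peaks were unevenly spread over GC content and width. Gains made up 43.9% of the peaks with MyoD at a GC content of at most 40% and 21.3% above 55%, and losses made up 38.7% and 25% of the GFP peaks in these classes. AT-rich peaks were thus the least often shared in both directions. The share at a MyoD peak ran opposite, from 27.7% of gained peaks in the AT-richest class to 46.6% in the GC-richest, and from 5.49% to 34.9% of lost peaks. Retained peaks of the list with MyoD went from 18.5% to 37.4%. Gained peaks exceeded retained ones, and lost peaks fell below them, in each of the 5 GC classes, though above 55% GC the retained values of 37.4% and 39.2% lay within or near the counting intervals of the gained (38.4 to 55) and lost (27.8 to 42.5) shares. By width, 47.1% of peaks up to 250 bp with MyoD were gained, 21.0% of those of 251 to 500 bp, and 2 peaks above 1000 bp, while the share at a MyoD peak rose from 31.8% over 48.2% to 67.4% of those of 501 to 750 bp. Retained peaks of that list also overlapped a MyoD peak more often when wider, at 22.4%, 29.5% and 38.8% of these widths. Lost peaks had 12.6%, 18.8% and 27.4%, against 25.6%, 28.9% and 34.6% of retained GFP peaks.

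**Figure D5:**
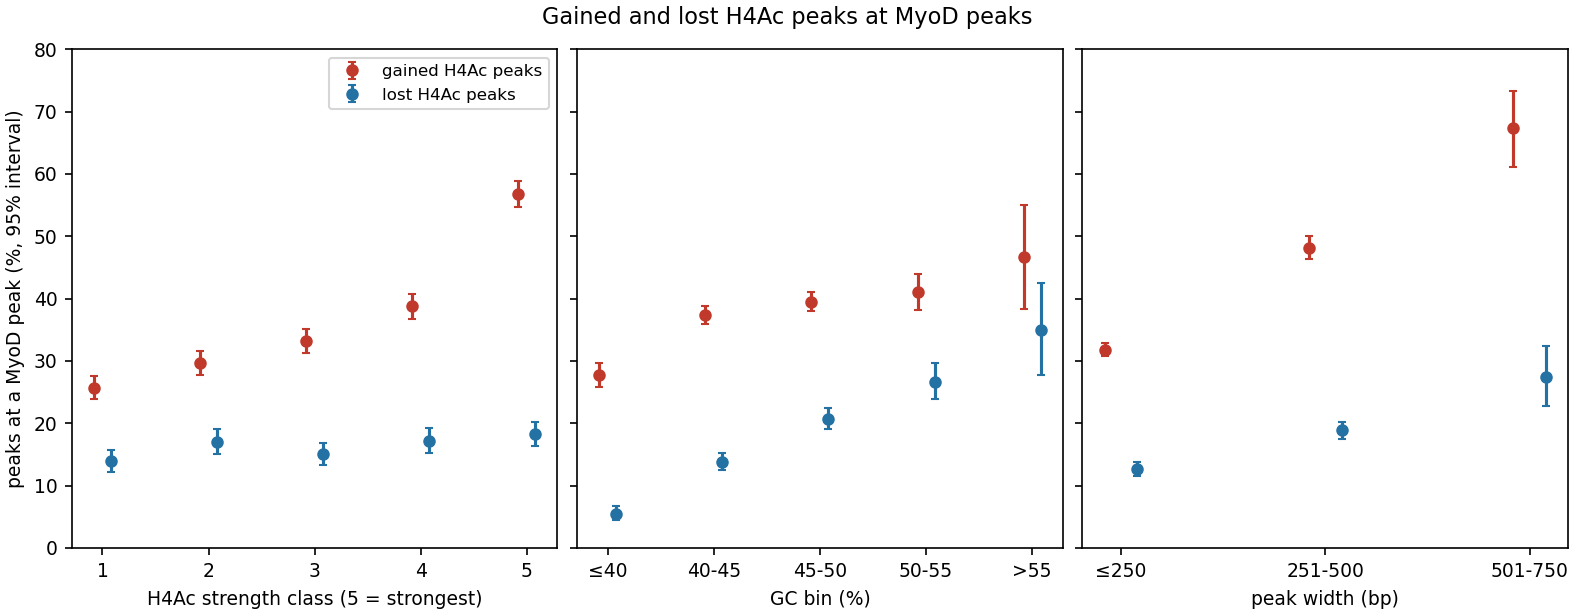
Percent of gained (red) and lost (blue) H4Ac peaks that overlap a MyoD peak, with exact 95% binomial intervals, by class of H4Ac coverage over cutoff (left, 5 = strongest), GC class (centre) and peak width (right, up to 750 bp). The gained share is the higher one throughout, at 56.8% against 18.2% in strength class 5.

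Gains next to existing acetylation differed from isolated ones. Of the gained peaks 4472 (39.5%) lay within 1000 bp of a GFP peak, and 28.0% of these overlapped a MyoD peak, against 42.4% of the 6840 farther away. For lost peaks the order was reversed: 19.4% of the 3253 within 1000 bp of a peak with MyoD (43.8%) overlapped a MyoD peak, against 13.8% of those farther away. Gains far from existing peaks thus lay at MyoD sites more often than near ones, and far losses less often.

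The 5 strongest gained peaks at MyoD sites all had an H4Ac peak with Myf5. The share of all gained peaks called with Myf5 is not given here, so this count describes these 5 only. Coverages with MyoD and Myf5 were 148 and 62 at chr4:59244362-59245006 and 123 and 90 at chr17:48139102-48139489. They were 120 and 50 at chr5:77211124-77211821 and 102 and 66 at chr16:93007191-93008134. The peak at chr9:94468360-94468601 had an H4Ac coverage of 93 (75.1 to 113.9) with MyoD and 48 with Myf5, at a MyoD peak of coverage 427. Its cutoff was 19, and no GFP peak was listed there. The strongest gains without a MyoD peak were weaker: 60 at chr9:70054663-70055007, 53 at chr19:11686193-11686530, 51 at chr4:34635370-34635551, 50 at chr11:106041385-106041747 and 45 at chr2:141413009-141413205. In the cells with Myf5 these had coverages of 59, 57, 36 and 39 in this order, and the last was not called. The gain on chromosome 2 was thus the only one of these 5 not called with Myf5.

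Of the 5 strongest lost peaks at MyoD sites, 4 were not called with Myf5. The GFP coverages were 63 at chr16:30064425-30065045, 58 at chr18:67550434-67551027, 57 at chr12:112943040-112943410 and 56 at chr7:35697470-35697814. The fifth, at chr8:112132347-112132580, had 52 with GFP and 28 with Myf5. Without a MyoD peak most of the strongest losses stayed listed with Myf5: 79 with GFP and 32 with Myf5 at chr4:8463214-8463532, 70 and 73 at chr5:101065622-101066533, and 62 and 26 at chr6:71781373-71781679. The loss at chr18:80909911-80910383 (79 with GFP) was not called with Myf5. That at chr8:20017345-20017868 (79 with GFP and 74 with Myf5) had a control coverage of 31 and lies beside the second of the chromosome 8 regions with a raised control. The share of all lost peaks called with Myf5 is not given here. With 5 named losses in each set and no such share beside them, whether losses with and without a MyoD peak differ in this cannot be told.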

How the data were processed

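Peak lists of H4Ac, MyoD and Myf5 were used as deposited. Per the file headers, each peak carries the authors' maximum coverage (signal), the coverage cutoff of its GC class, the control coverage and a p-value. The authors' p-value was not used further. The submitters' processing notes name the tools BWA (0.7.5) and CASAVA (1.8.2) and, without a role, the builds hg19 and mm9. Positions were read as mm9. The peak caller is not given in the sources used here, nor is any scaling to depth. In the GFP list, 1 control coverage was a placeholder and treated as missing.

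Overlapping H4Ac peaks (at least 1 bp) were joined into regions, and the highest coverage over cutoff was ranked over the same regions in both lists. Named regions are the 5 most extreme of each set: rises and falls past counting error, gains and losses, each with and without a MyoD peak, and the strongest in both lists. Intervals (confidence level 0.95) are exact Poisson, exact binomial (Clopper-Pearson) or from order statistics. They cover counting error only. No test was run, since each group had 1 list. Members, classes and lists were chosen with earlier results of these data known. Gene lists were not run and no sequence is shown, because the reference tables used here are of another build (GRCm38). Steps were tested on simulated lists. Alternatives are described with the closing observations. The tools were Python 3.11.15 with pandas 2.3.3, numpy 2.4.6, matplotlib 3.10.9 and scipy 1.17.1.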

Additional observations from a re-analysis of the deposited data

How the results depend on the processing

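Of 72 alternative values for 10 results, 54 stayed within the limits set for them and 18 moved. A change of direction was looked for only in the median shifts, where 0 reversed. With regions held to 1.5 times the cutoff in at least 1 list, the median shift was 1.67 points with a MyoD peak and -1.12 without. Counts followed their thresholds: at 10 points 6029 regions rose and 6289 fell, and at 30 points 1746 and 1609. Gained peaks numbered 1268 at 1.5 times and 296 at 2 times the cutoff, of which 64.8% and 87.2% lay at a MyoD peak. Lost peaks numbered 476 (18.9% at a MyoD peak) and 37 at these limits. Without any peak of the other list within 500 bp, 41.0% of gained and 13.9% of 4679 lost peaks lay at a MyoD peak. With lists of equal length these shares were 41.0% and 17.2%, and the counts changed order, to 7809 gained and 9007 lost. Each count still lay within its own limits, which did not compare gains with losses. Elsewhere the median shift with a MyoD peak was 0.78 to 0.95 points, and risers past counting error at the strongest MyoD peaks 10.0% to 11.3%. Alternatives added after the data were seen left out control coverages of 10 or more and, for risers and fallers, regions whose GC class differed. No paired analysis was possible because each group had 1 list and no test was run. With 1 library per group and unknown depth, changes of level cannot be separated from differences between libraries.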

Other observations

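Gains and losses were also counted by neighbourhood, a count added after the values were seen. In 50 kb windows along the chromosomes, 15247 windows held an H4Ac region, 7316 a gained peak and 5399 a lost one, and 2225 held both (30.4% of the windows with a gain). At least 5 gains and no loss were found in 56 windows, and at least 5 losses and no gain in 9. The list with MyoD is the longer one, with 11312 gains against 7427 losses, and with lists of equal length there were 7809 and 9007, so these counts show no direction. The window with the most gains over losses, at chr10:90600001-90650000, held 13 gained, 2 lost and 15 retained regions, and 2 of its 13 gained peaks overlapped a MyoD peak. The window at chr7:118200001-118250000 held 9 gains and no loss, with 3 gains at a MyoD peak, and that at chr3:142000001-142050000 held 9 gains, 1 of them at a MyoD peak. Most gained peaks of these 3 windows lay outside the MyoD peaks, as did most of all gained peaks, of which 36.7% overlapped one.

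The largest excess of losses over gains lay at chr2:126100001-126150000, with 10 lost and 1 gained peak, and its 5 retained regions had a median rank shift of -28.6 points. The window at chr5:8400001-8450000 also held 10 lost peaks and 1 gained. Of these losses 1 and 0 lay at a MyoD peak. Other windows held many of both, such as 10 gained and 15 lost peaks at chr6:4450001-4500000.

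By chromosome, the gained share of the list with MyoD ran from 28.2% on chromosome 11 to 37.2% on the X chromosome, and the lost share of the GFP list from 19.2% on chromosome 17 to 26.4% on chromosome 13. On the X chromosome 28.0% of gained and 7.14% of lost peaks overlapped a MyoD peak, against 14.4% and 15.0% of the retained peaks of the same lists there.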
